A study of Mus musculus with 32 samples.

Results

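The heat shock chaperones described here are 10 genes: the HSP70 genes Hspa1a, Hspa1b and Hspa8, the HSP110 gene Hsph1, the HSP90 gene Hsp90aa1, the J protein gene Dnajb1, the small heat shock protein genes Hspb1 and Hspb8, the co-chaperone gene Bag3 and the mitochondrial co-chaperonin gene Hspe1. They were chosen by gene symbol, and all 10 were found by Ensembl identifier among the 74021 genes listed for the LAG-3 sort and the spinal cord and the 74016 listed for the stage experiment. Their levels were followed in lumbar spinal microglia and in whole lumbar spinal cord of SOD1G93A mice, a model of amyotrophic lateral sclerosis (ALS) that carries a mutant human SOD1 transgene (B6.Cg-Tg(SOD1*G93A)1Gur/J). LAG-3 is an inhibitory immune receptor, and the study asked how microglia with high LAG-3 differ from the rest and what loss of LAG-3 changes.

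RNA was sequenced in 3 experiments with 32 libraries. In the first, CD11b+/CD45int microglia of SOD1G93A mice, taken at P140 by the study's methods, were sorted into LAG-3-low and LAG-3-high fractions (5 libraries each) beside microglia of WT mice without the transgene (4 libraries), whose age the labels do not give. In the second, unfractionated microglia came from SOD1G93A mice of LAG-3+/+ or LAG-3-/- genotype, 3 libraries for each genotype at each of P120 and P140. In the third, RNA came from the whole lumbar cord of both genotypes at P140 (3 libraries each). The LAG-3-/- mice carried a germline disruption of Lag3 (B6.129S6(Cg)-Lag3tm1Doi/J), which is carried by every cell and not by microglia alone, and all groups but WT carried the SOD1G93A transgene. No source used here says whether a library pools animals, so the p-values measure the spread between libraries.

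Heat shock proteins hold unfolded proteins in a foldable state. HSP70 binds exposed stretches of a client protein, J proteins such as Dnajb1 deliver the client and start ATP hydrolysis, and HSP110 proteins such as Hsph1 exchange the nucleotide and release it. Heat shock factor 1 (HSF1) switches on the inducible members through heat shock elements, inverted repeats of the unit GAA, and misfolded SOD1 is a known client of this machinery. In the nervous system Bag3 and Hspb8 form a complex with HSP70 that routes aggregating proteins to autophagy.

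The promoters of the inducible members are shown first because the letters of the heat shock element set the members apart as a description. RefSeq promoters (GRCm38.p6) were given for 8 of the 10 genes, not for Hspa8 and Hsp90aa1. In the 250 bases before the start, GAANNTTC or TTCNNGAA (each its own reverse complement, so both strands are covered) was found in 5 of the 8 genes, Hspa1a, Hspa1b, Hspb1, Hspe1 and Hsph1, and in 14.6% of all 27025 genes with a promoter. A longer run of 3 alternating units, read on both strands, in which the short motifs overlap by a shared unit, was found in Hspe1 alone of the 8 and in 0.514% of all genes. The windows were placed on GRCm39 by exact match and are printed 5′ to 3′ on the gene's strand, with the motif letters in capitals. They lie at chr17:35191189-35191276 (Hspa1a, minus strand), chr1:55127178-55127275 (Hspe1, plus strand), chr5:149559787-149559874 (Hsph1, minus strand) and chr5:135916616-135916723 (Hspb1, plus strand).
Hspa1a: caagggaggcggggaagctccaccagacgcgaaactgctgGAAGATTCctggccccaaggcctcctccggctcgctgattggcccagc
Hspe1: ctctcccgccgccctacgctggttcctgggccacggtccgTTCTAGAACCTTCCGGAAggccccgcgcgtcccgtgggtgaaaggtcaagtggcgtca
Hsph1: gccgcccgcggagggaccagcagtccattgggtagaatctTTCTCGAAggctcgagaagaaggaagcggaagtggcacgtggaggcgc
Hspb1: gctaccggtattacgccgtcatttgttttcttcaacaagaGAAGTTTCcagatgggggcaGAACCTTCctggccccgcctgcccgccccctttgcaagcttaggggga

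The window of Hspb1 holds separate motifs 117 and 97 bases before the start, while in Hspe1 the motifs overlap in a single run of letters that begins 89 bases before it. The window of Hspa1b, at chr17:35178271-35178358, has the same letters as that of Hspa1a. The copies are single-exon genes on the minus strand of chromosome 17, at 35188166 to 35191132 for Hspa1a and 35175412 to 35178214 for Hspa1b (GRCm39). They match at 247 of 250 bases before the start and at 99.5% of their coding bases, and differ mainly in the 3′ untranslated region (51.4% identity). Reads of one copy can therefore be assigned to the other, and their sum is given beside each result. Other genes at least 95% identical over 200 bases were counted apart from the members, and their counts came to at most 2.42% of those of Hspa8 or Hsp90aa1 in any table. The pseudogene Hsp25-ps1 had 56 counts beside the 94 of Hspb1 in the stage microglia.

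Totals ranged from 9403286 to 49512341 counts per library. Lag3 itself checked the labels: it was at most 0.462 CPM (counts scaled to a common library size of 1000000 with TMM factors) in LAG-3-/- microglia against at least 24.5 CPM in LAG-3+/+ microglia of the stage experiment, and 5.50 to 5.72 CPM against 43.4 to 74.5 CPM in cord. In WT microglia of the sort Lag3 was at 0.508 to 9.99 CPM. Several libraries stood apart from their groups. WT replicates 1 and 4 deviated from each gene's median level over the sort libraries by 1.39 and 1.82 on the log2 scale (median over genes of the absolute deviation), against 0.670 and 0.860 for WT replicates 2 and 3 and at most 0.428 for the SOD1G93A libraries. P140 LAG-3-/- replicate 1 resembled the P140 LAG-3+/+ libraries in how its deviations ran with transcript length (Spearman's rho of -0.189, against -0.254 to -0.195 in that group and 0.0155 to 0.129 in the other stage libraries). In cord the same measure was 0.362 to 0.540 in LAG-3+/+ and -0.546 to -0.353 in LAG-3-/- libraries, so it cannot be told apart from genotype there. The transcript lengths of the members run from 774 bases for Hspe1 to 6178 bases for Hsph1, and values with a correction for length and GC content are given beside the calls they change. The listed neutrophil genes summed to 5972 to 70511 CPM in WT, 22825 to 66376 CPM in LAG-3-low and 3.48 to 9.67 CPM in LAG-3-high libraries (all 10 genes detected, Ngp leading in WT and LAG-3-low libraries). The 9 microglial genes summed to at least 18335 CPM in every microglial library.

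Constitutive Hspa8 had the highest level of the 10 genes in both tissues, and Hspb1 and Hspb8 were plain in cord and near 0 in microglia. Hspa8, which encodes the HSC70 of unstressed cells, ranged from 905 to 2513 CPM over the 26 microglial libraries and from 1702 to 2212 CPM over the 6 cord libraries. It made up 63.9% to 88.0% of the summed CPM of the 10 genes in microglia and 51.2% to 55.6% in cord. Per kilobase of transcript, microglia of P120 LAG-3+/+ mice gave the order Hspa8 (536 ± 88.4 CPM per kb), Hspe1 (86.9 ± 11.2), Hsp90aa1 (30.0 ± 2.12), Dnajb1 (16.5 ± 1.39), Bag3 (8.03 ± 0.921) and Hsph1 (3.53 ± 0.386; SD, n = 3 each), each more than the summed SDs above the next. In LAG-3+/+ cord Hsp90aa1, the stress-responsive cytosolic HSP90, came second at 337 ± 30.2 CPM per kb after Hspa8 at 836 ± 111.5, followed by Hspb1 at 158 ± 33.0 and Hspe1 at 57.6 ± 1.13 (SD, n = 3 each). Below these, Hspb8 (32.0 ± 3.0) and Hsph1 (31.9 ± 5.70) did not differ beyond their spread, and Bag3 (16.9 ± 0.408) and Dnajb1 (12.4 ± 1.68) came above the Hspa1 copies.

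Hspb8, the partner of Bag3, had no count in 25 of the 26 microglial libraries and 1 count in the other, where 3 counts would have been 0.0555 to 0.261 CPM. Hspb1, which encodes HSP25, had no count in 17 microglial libraries and at most 47 counts, 2.67 CPM in P140 LAG-3+/+ replicate 2. In cord Hspb1 was at 73.3 to 188 CPM and Hspb8 at 61.2 to 107 CPM. Bag3 was present in every microglial library, at 6.65 to 39.2 CPM. The microglial and cord tables were made with different library kits and scaled separately, so these levels stand side by side without a test. In bulk RNA such as this, fewer cells of a type and less RNA per cell cannot be told apart.

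**Figure D1:**
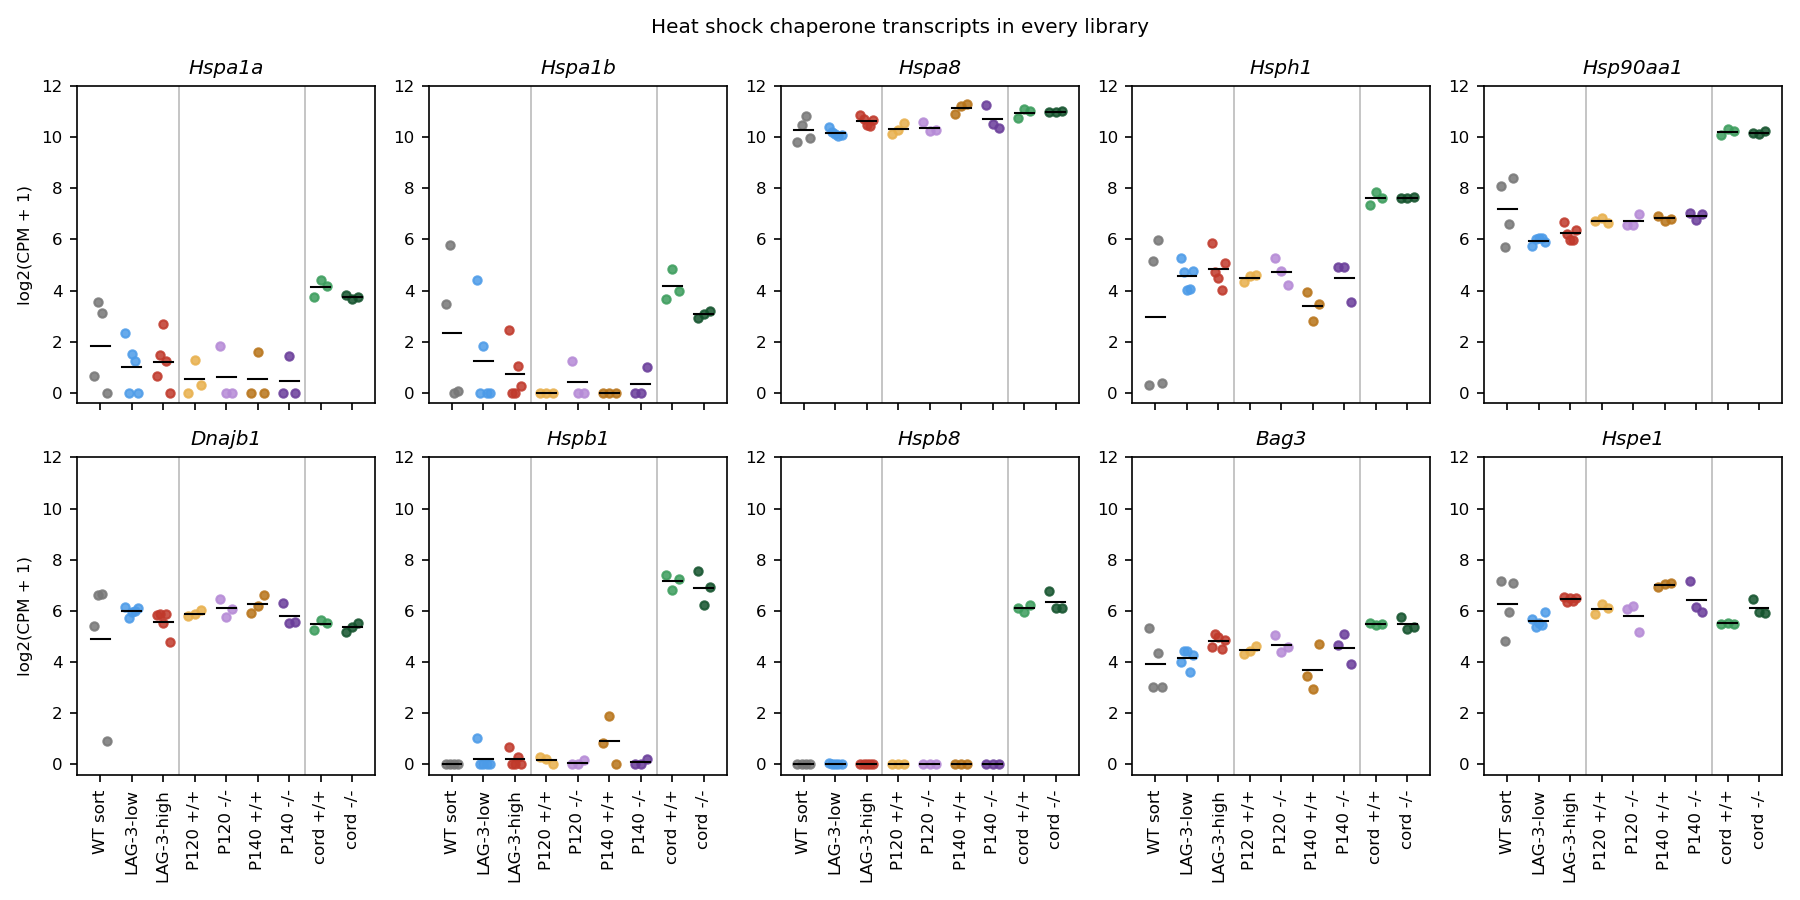
Level of each of the 10 chaperone genes in every library, as log2(CPM + 1) on the vertical axis. Points are libraries, bars the group means of the plotted values, and grey lines part the LAG-3 sort, the stage microglia and the cord; Hspb1 and Hspb8 lie at or near 0 in all microglia and between 61.2 and 188 CPM in cord.

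The inducible HSP70 genes appeared in microglia as a scatter of single libraries. Summed over both copies, Hspa1a and Hspa1b were at 10.6, 64.7, 7.74 and 0.0634 CPM in WT, at 24.2, 0, 4.38, 1.41 and 0 CPM in LAG-3-low and at 5.07, 1.80, 5.42, 2.41 and 0.211 CPM in LAG-3-high libraries. In the stage microglia the sum was above 0 in 6 of 12 libraries and did not pass 3.91 CPM. High and low libraries occurred within most groups, so the groups overlapped in every microglial comparison, and no difference of either copy passed (edgeR with Benjamini-Hochberg adjustment; Hspa1b was not testable in the stage table). Single copies were at 0 in 11 (Hspa1a) and 16 (Hspa1b) of the 26 microglial libraries.

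The LAG-3 fractions were compared to ask whether they differ in chaperone levels. Hspe1, Hspa8 and Bag3 lay higher in every LAG-3-high than in every LAG-3-low library, with no overlap, yet none of the 8 members tested passed at an adjusted p under 0.1, against 4.39% of all 16508 genes. An unadjusted p under 0.05 was found for 2 members, and DESeq2 called none. Hspe1, the lid of the mitochondrial HSP60 chamber, was at 50, 40.4, 44.8, 42.4 and 61.2 CPM in the LAG-3-low and at 93, 80.2, 89.0, 83.7 and 90.5 CPM in the LAG-3-high libraries. The lowest LAG-3-high library thus stood above the highest LAG-3-low library, and the fitted log2 fold change was 0.87 with a standard error of 0.35 (adjusted p = 0.292, edgeR with Benjamini-Hochberg adjustment; unadjusted p = 0.0257). Hspa8 was at 1339, 1170, 1105, 1058 and 1094 CPM in the LAG-3-low and at 1867, 1686, 1420, 1400 and 1641 CPM in the LAG-3-high libraries. Its log2 fold change was 0.47 with a standard error of 0.18 (edgeR adjusted p = 0.249 with Benjamini-Hochberg adjustment; unadjusted p = 0.0196).

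Bag3, a nucleotide exchange factor of HSP70 and an autophagy adaptor, was at 11.3 to 20.9 CPM in LAG-3-low and at 21.8 to 33.1 CPM in LAG-3-high libraries. It had a log2 fold change of 0.67 with a standard error of 0.46 (edgeR adjusted p = 0.680 with Benjamini-Hochberg adjustment). Groups did not overlap for 3 of the 8 members and for 15.5% of all genes tested. The shared spread of the fit included the WT libraries that stood apart. Fitted on the 10 SOD1G93A libraries alone, Hspe1 (0.79, adjusted p = 0.000877), Hspa8 (0.40, adjusted p = 0.0176) and Bag3 (0.60, adjusted p = 0.0803, all edgeR with Benjamini-Hochberg adjustment) passed in the higher direction, while 3467 genes passed in all. With the correction for length and GC content Hspe1 (1.20, adjusted p = 0.0552) and Hspa8 (0.57, adjusted p = 0.0544, edgeR with Benjamini-Hochberg adjustment) passed in the fit with WT, and without WT replicate 2 alone Hspe1 passed (0.87, edgeR adjusted p = 0.049 with Benjamini-Hochberg adjustment). With library totals in place of TMM factors the median of all genes moved from -0.02 to -0.40, and relative to that median Hspe1 was at 0.89 under both scalings and Hspa8 at 0.50 and 0.49. Other measures separated the fractions without overlap: beside the neutrophil genes given above, the 9 microglial genes summed to 18335 to 26245 CPM in LAG-3-low and 28483 to 31637 CPM in LAG-3-high libraries, the 5 monocyte and border macrophage genes to 141 to 343 CPM and 1.69 to 9.11 CPM, and mitochondrially encoded transcripts held 0.584% to 0.847% and 0.989% to 1.25% of the counts. Their part in these values was not tested.

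The other members showed smaller or wider differences. Hsp90aa1 was at 52.0 to 65.6 CPM in LAG-3-low and at 61.9 to 102 CPM in LAG-3-high libraries (log2 fold change 0.33, standard error 0.39), and Hsph1 at 15.1 to 37.5 against 15.5 to 57.9 CPM (0.35, standard error 0.99). Dnajb1 pointed the other way, at 52.0 to 70.4 CPM in LAG-3-low and 26.3 to 58 CPM in LAG-3-high libraries (-0.37, standard error 0.67). All 3 overlapped between fractions and none passed (adjusted p from 0.890 to 0.978, edgeR with Benjamini-Hochberg adjustment). The median log2 fold change of the 8 members was 0.34, beside -0.02 for all genes tested.

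Both fractions were also compared with WT microglia, which served as the common control of both comparisons. Hsp90aa1 fell in each, by 1.30 on the log2 scale in LAG-3-high (standard error 0.41, adjusted p = 0.0367) and by 1.64 in the LAG-3-low fraction (adjusted p = 0.0166 with a standard error of 0.41, edgeR with Benjamini-Hochberg adjustment). With the correction for length and GC content Hspa8, otherwise at 0.33 in LAG-3-high microglia, was at -0.47 there (edgeR adjusted p = 0.0456 with Benjamini-Hochberg adjustment). In LAG-3-low the same correction added falls of Hspa8 (-1.04, adjusted p = 0.000662) and Bag3 (-1.46, adjusted p = 0.0517, edgeR with Benjamini-Hochberg adjustment), with the median of all genes at -0.70. Hspe1 fell by 0.94 in the LAG-3-low fraction, with a standard error of 0.37 (edgeR adjusted p = 0.0912 with Benjamini-Hochberg adjustment). Thus 1 of 8 members passed in the LAG-3-high fraction, where 30.3% of all genes did (16.5% lower, 27% past an absolute log2 fold change of 1), while 2 of 8 passed for LAG-3-low, where 24.9% of all genes did (12.9% lower, 21.9% past a change of 1). Groups did not overlap for 0 members in either comparison, beside 20.9% and 15.7% of all genes.

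The falls of Hsp90aa1 and Hspe1 rested on WT replicates 1 and 4. Hsp90aa1 was at 275 and 333 CPM in those libraries but at 51.2 and 96.1 CPM in WT replicates 2 and 3, which overlapped the SOD1G93A fractions. Hspe1 was at 144 and 135 CPM against 27.2 and 61.0 CPM. Hsph1 ran the opposite way, at 0.255 and 0.317 CPM in replicates 1 and 4 and at 34.2 and 62.1 CPM in replicates 2 and 3, and Dnajb1 was at 42.0 and 0.888 CPM against 97.5 and 99.3 CPM. Left out singly, WT replicate 4 cost the call of Hsp90aa1 in LAG-3-high (adjusted p = 0.127), and the call of Hspe1 in LAG-3-low was lost without WT replicate 1 or 4, LAG-3-low replicate 1, 2, 3 or 4, or any LAG-3-high library (adjusted p from 0.113 to 0.295, edgeR with Benjamini-Hochberg adjustment).

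The direction against WT depended on which of these libraries were used, an alternative added after the values were seen. With WT replicates 2 and 3 alone, the log2 fold change of Hsp90aa1 was 0.11 in LAG-3-high (adjusted p = 0.775) and -0.18 in LAG-3-low microglia (adjusted p = 0.652), and that of Hspe1 was 1.05 in LAG-3-high (adjusted p = 0.0140) and 0.22 in LAG-3-low microglia (adjusted p = 0.60, all edgeR with Benjamini-Hochberg adjustment). In the same fit Dnajb1 passed in the lower direction in LAG-3-high microglia (-0.97, edgeR adjusted p = 0.0198 with Benjamini-Hochberg adjustment). With replicates 1 and 4 alone, Hsph1 was higher by 6.40 in LAG-3-low and by 6.76 in LAG-3-high microglia (edgeR adjusted p = 4.34e-05 and 3.12e-05 with Benjamini-Hochberg adjustment). Mitochondrially encoded transcripts held 2.99% and 3.60% of the counts in WT replicates 1 and 4 and 0.842% and 1.46% in replicates 2 and 3; their part in these values was not tested.

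**Figure D2:**
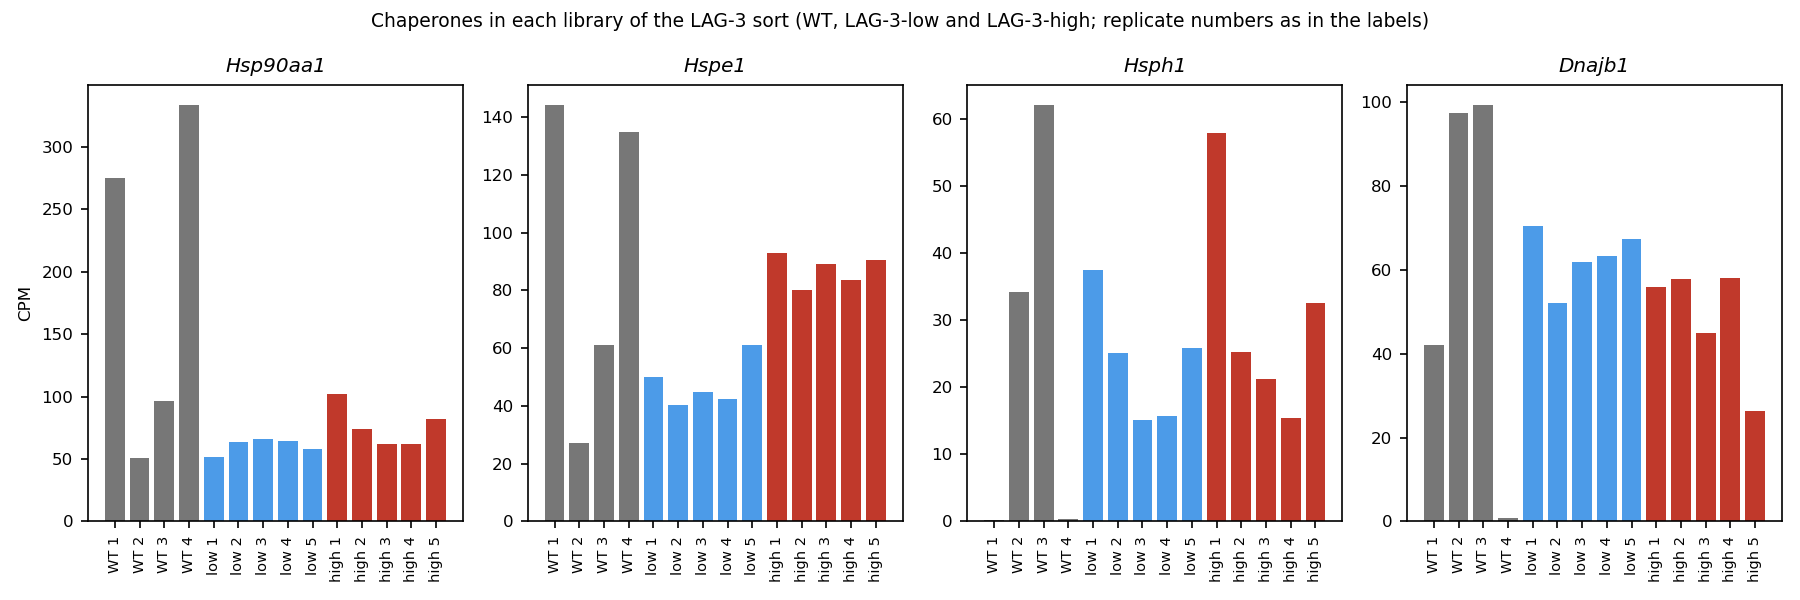
CPM of 4 chaperone genes in each library of the LAG-3 sort, with WT in grey, LAG-3-low in blue and LAG-3-high in red. WT 1 and WT 4 carry the highest bars for Hsp90aa1 and Hspe1 and almost none for Hsph1, while WT 2 and WT 3 resemble the sorted fractions more closely.

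Disease stage was compared within each LAG-3 genotype. From P120 to P140, Hspa8 and Hspe1 rose in LAG-3+/+ microglia and no member passed in LAG-3-/- microglia. Hspa8 was at 1105, 1230 and 1518 CPM at P120 and at 1899, 2401 and 2513 CPM at P140. All P140 libraries were above all P120 libraries, and the log2 fold change was 0.82 with a standard error of 0.24 (adjusted p = 0.0374, edgeR with Benjamini-Hochberg adjustment). Hspe1 was at 58.1, 75.2 and 68.6 CPM at P120 and at 122, 132 and 135 CPM at P140. Its groups did not overlap either, with a log2 fold change of 0.95 and a standard error of 0.34 (edgeR adjusted p = 0.0745 with Benjamini-Hochberg adjustment).

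These 2 rises, of 7 members tested, stood beside calls for 27.4% of all 18669 genes, 11.9% higher. The median of all genes was -0.22 on the log2 scale with TMM factors and -0.70 with library totals, and relative to that median Hspa8 was higher by 1.04 and 1.02 and Hspe1 by 1.17 and 1.15. Against 0 neither passed with library totals (Hspa8 0.31, adjusted p = 0.288; Hspe1 0.45, adjusted p = 0.289, edgeR with Benjamini-Hochberg adjustment). The correction for length and GC content kept both calls, with log2 fold changes of 1.01 for Hspa8 (adjusted p = 0.0334) and 1.17 for Hspe1 (adjusted p = 0.0505, edgeR with Benjamini-Hochberg adjustment). In that fit Dnajb1 (1.18, adjusted p = 0.0462) and Hsp90aa1 (0.83, adjusted p = 0.0267) passed as well, which without the correction were at 0.39 and 0.08 (adjusted p = 0.360 and 0.788, edgeR with Benjamini-Hochberg adjustment). Neither call was secure against the loss of 1 library: Hspa8 was lost without P120 LAG-3+/+ replicate 1 or 2 or P140 LAG-3+/+ replicate 3, and Hspe1 without any single LAG-3+/+ library or P120 LAG-3-/- replicate 1 (adjusted p up to 0.133 and 0.206, edgeR with Benjamini-Hochberg adjustment).

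The HSP110 gene Hsph1 was the one member with non-overlapping stages in the other direction. It was at 19.1, 23.1 and 23.3 CPM at P120 and at 14.2, 6.03 and 10.1 CPM at P140 in LAG-3+/+ microglia. Every P140 library was below every P120 library, with a log2 fold change of -1.11 and a standard error of 0.46 that did not pass (edgeR adjusted p = 0.115 with Benjamini-Hochberg adjustment). The lower level passed by DESeq2 (-1.0, adjusted p = 0.086) and with library totals (-1.57, edgeR adjusted p = 0.0353, both with Benjamini-Hochberg adjustment), where the median of all genes was -0.70. It has the longest transcript of the members, and with the correction for length and GC content the value turned to 0.29 (edgeR adjusted p = 0.762 with Benjamini-Hochberg adjustment). In all, 3 of 7 members and 42.2% of all genes had non-overlapping stages. Bag3 was at 19.0 to 23.7 CPM at P120 and at 6.65 to 25.3 CPM at P140 and overlapped. The 9 microglial genes summed to 28750.2 to 31768 CPM at P120 and 37652 to 45017 CPM at P140 in these libraries, and to 41386 CPM in P140 LAG-3-/- replicate 1 against at most 29378 CPM in the other P140 LAG-3-/- libraries. The 10 neutrophil genes summed to 1743 to 2576 CPM in P120 LAG-3+/+, 2.68 to 6.58 CPM in P120 LAG-3-/-, 3.84 to 3482 CPM in P140 LAG-3+/+ and 4.02 to 4616 CPM in P140 LAG-3-/- libraries. The part of either list in the chaperone values was not tested.

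In LAG-3-/- microglia Hspa8 was at 1536, 1205 and 1246 CPM at P120 and at 2445, 1448 and 1318 CPM at P140, and Hspe1 at 66.0, 71.9 and 35.4 CPM and at 143, 69.6 and 61.2 CPM. Replicate 1 at P140 stood with the LAG-3+/+ libraries of that stage, and the other P140 libraries stayed within the P120 range. The log2 fold changes were 0.39 for Hspa8 and 0.66 for Hspe1 (adjusted p = 0.711 and 0.619, edgeR with Benjamini-Hochberg adjustment), and 0% of all genes passed in this comparison. Groups did not overlap for 0 members and 14.8% of all genes. An unadjusted p under 0.05 was found for 1658 genes and 0 members, and 449 genes passed by DESeq2, none of them a member.

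Genotypes were compared at each stage to ask what loss of LAG-3 changed. At P120 no member passed by edgeR or DESeq2 and 0 had an unadjusted p under 0.05, beside calls for 0.0107% of all genes and non-overlapping groups for 0 members and 11.5% of all genes, and log2 fold changes lay between -0.22 for Hspe1 and 0.61 for the sparse Hspa1a. At P140 no member passed by edgeR, beside 10.2% of all genes, and 1 member, Hsph1, had an unadjusted p under 0.05 and passed by DESeq2 (1.13, adjusted p = 0.0667 with Benjamini-Hochberg adjustment). Groups did not overlap for 0 members and 21.1% of all genes. Hspa8 was lower by 0.39 and Hspe1 by 0.51 on the log2 scale in LAG-3-/- microglia, and Hsph1 higher by 1.20 with a standard error of 0.46 (adjusted p = 0.356, 0.389 and 0.146, edgeR with Benjamini-Hochberg adjustment). Hsph1 was at 29.4, 29.7 and 10.9 CPM in LAG-3-/- and at 14.2, 6.03 and 10.1 CPM in LAG-3+/+ microglia, so 1 LAG-3-/- library fell inside the LAG-3+/+ range. Over the 10 alternatives other than omission of a library, the log2 fold change of Hsph1 ran from 0.41 to 1.45, and 2 of them passed.

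The P140 values of Hspa8, Dnajb1 and Hspe1 depended on a single library, while Hsph1 passed in 0 of the 12 fits without 1 library. Without P140 LAG-3-/- replicate 1, Hspa8 (-0.71, adjusted p = 0.0313), Dnajb1 (-0.75, adjusted p = 0.0877) and Hspe1 (-0.98, adjusted p = 0.0451) passed in the lower direction (edgeR with Benjamini-Hochberg adjustment). Leaving out this library also raised the number of all genes called in the interaction below, from 32 to 1713. That is a different comparison, and the share of all genes called between genotypes at P140 without this library is not given here. Whether the calls are particular to the chaperones was not tested. Dnajb1 was at 79.3 CPM in that library and at 44.6 and 46.8 CPM in the other LAG-3-/- libraries, against 60.2, 72.8 and 97.6 CPM in LAG-3+/+ microglia. The interaction of genotype and stage, which tests whether the stage difference itself differed, passed for none of the 7 members by edgeR or DESeq2, with 0 at an unadjusted p under 0.05, and for 0.171% of all genes by edgeR (32 genes, against 1301 by DESeq2 and 1713 by edgeR without P140 LAG-3-/- replicate 1). It was -0.44 for Hspa8 and -0.29 for Hspe1 (standard errors 0.34 and 0.48, adjusted p = 0.610 and 0.852, edgeR with Benjamini-Hochberg adjustment), so the stage difference of these genes was not shown to differ between genotypes. For Hsph1 the interaction was 0.90 (standard error 0.64), and 0.01 with the correction for length and GC content. The 4 genotype and stage comparisons share groups with one another.

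**Figure D3:**
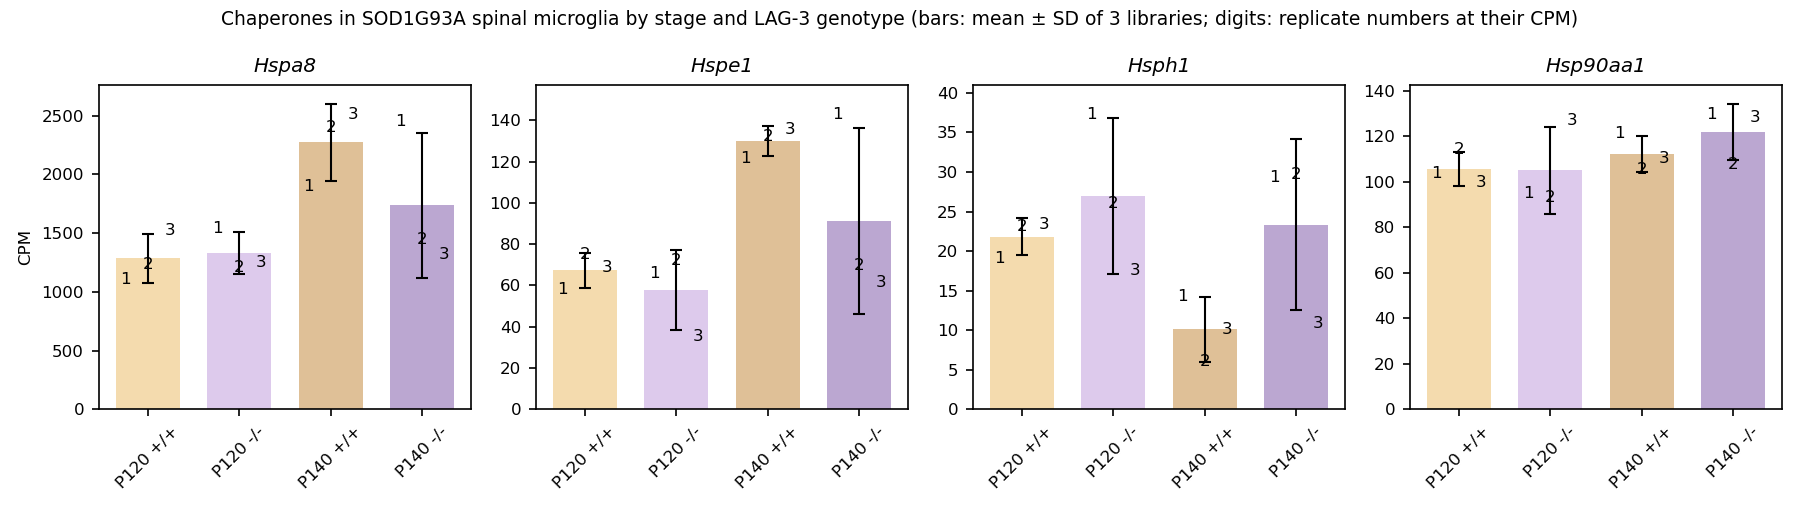
CPM of 4 chaperone genes in SOD1G93A microglia by stage and LAG-3 genotype. Bars and whiskers give the mean ± SD of 3 libraries and digits mark each library by its replicate number; P140 LAG-3-/- replicate 1 sits with the P140 LAG-3+/+ libraries for Hspa8 and Hspe1 and apart from its own group.

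In whole cord at P140 the inducible HSP70 genes fell and Hspe1 rose in LAG-3-/- mice. Hspa1b was at 11.8, 27.7 and 14.9 CPM in LAG-3+/+ and at 6.69, 7.46 and 8.21 CPM in LAG-3-/- cord. Every LAG-3-/- library was below every LAG-3+/+ library, and the gene fell by 1.28 on the log2 scale (standard error 0.30, adjusted p = 0.0115, edgeR with Benjamini-Hochberg adjustment). Hspa1a was at 12.6, 20.6 and 17.2 CPM and at 13.2, 11.8 and 12.6 CPM, so its groups overlapped, and it fell by 0.42 (standard error 0.17, edgeR adjusted p = 0.0684 with Benjamini-Hochberg adjustment).

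The sum of the copies does not depend on how shared reads were divided. It was at 24.4, 48.3 and 32.1 CPM in LAG-3+/+ and at 19.9, 19.2 and 20.8 CPM in LAG-3-/- cord. The groups did not overlap, the LAG-3-/- libraries lay close together, and the sum fell by 0.81 on the log2 scale (standard error 0.22, edgeR adjusted p = 0.0188 with Benjamini-Hochberg adjustment). The highest value, LAG-3+/+ replicate 2, set much of the size of the difference: without it Hspa1b fell by 0.84 (adjusted p = 0.00604), and Hspa1a was at -0.26 (adjusted p = 0.286, edgeR with Benjamini-Hochberg adjustment). The call of Hspa1a was also lost without LAG-3+/+ replicate 3 or LAG-3-/- replicate 2 or 3 (edgeR adjusted p from 0.105 to 0.174 with Benjamini-Hochberg adjustment). Without LAG-3-/- replicate 1, Hspa1b was at -1.21 with an edgeR adjusted p of 0.107 (Benjamini-Hochberg adjustment). With the correction for length and GC content both copies still fell, Hspa1b by 1.50 (adjusted p = 0.0196) and Hspa1a by 0.64 (adjusted p = 0.0250, edgeR with Benjamini-Hochberg adjustment).

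Hspe1 was at 43.8, 45.5 and 44.4 CPM in LAG-3+/+ and at 86.7, 61.8 and 59.3 CPM in LAG-3-/- cord. The groups did not overlap, with a log2 fold change of 0.64 and a standard error of 0.14 (edgeR adjusted p = 0.00449 with Benjamini-Hochberg adjustment). Hspe1 has the shortest transcript of the members, and the call was lost with the correction for length and GC content (0.17, edgeR adjusted p = 0.333 with Benjamini-Hochberg adjustment). Its HSP60 partner Hspd1, named here for its role after values were seen, was at 0.02 in cord without the correction (standard error 0.11, edgeR adjusted p = 0.917 with Benjamini-Hochberg adjustment). In the stage comparison in LAG-3+/+ microglia Hspd1 rose by 0.91 (standard error 0.35, edgeR adjusted p = 0.0961 with Benjamini-Hochberg adjustment) beside the 0.95 of Hspe1.

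The other 7 members did not pass in cord in the reported fit. The log2 fold changes of Hspa8 (0.03, standard error 0.15), Hsph1 (0.00, standard error 0.14), Hsp90aa1 (-0.04, standard error 0.13), Bag3 (0.01, standard error 0.13) and Dnajb1 (-0.12, standard error 0.13) did not pass (adjusted p from 0.49 to 0.982, edgeR with Benjamini-Hochberg adjustment). Hsp90aa1 was at 1072, 1280 and 1217 CPM in LAG-3+/+ and at 1158, 1119 and 1199 CPM in LAG-3-/- cord, and the groups overlapped. With the correction for length and GC content Hsph1 passed at 0.39 (edgeR adjusted p = 0.0616 with Benjamini-Hochberg adjustment). Hspb8 was at 68.0, 61.2 and 73.9 CPM and at 107, 68.9 and 68.3 CPM, and Hspb1 at 111 to 170 CPM and at 73.3 to 188 CPM, both with overlap and without a call (0.27 and -0.19 on the log2 scale, edgeR adjusted p = 0.248 and 0.719 with Benjamini-Hochberg adjustment).

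In all, 3 of 10 members passed in cord, 1 higher and 2 lower, where 47.1% of all 17702 genes passed (23.1% higher, 23.9% lower). Past an absolute log2 fold change of 1 as well were 1 member, Hspa1b, and 7.52% of all genes. Groups did not overlap for 2 of 10 members and for 51.6% of all genes. The median log2 fold change was -0.02 for the members and 0.00 for all genes. Cell type genes moved between the same libraries: the 5 oligodendrocyte genes summed to 15978 to 17481 CPM in LAG-3+/+ and 22713 to 31982 CPM in LAG-3-/- cord, the 5 astrocyte genes to 9965 to 11720 and 6098 to 10355 CPM, and the 9 microglial genes to 1438 to 1859 and 1081 to 1538 CPM, with every gene of these lists detected. Mitochondrially encoded transcripts held 4.6% to 6.78% of the counts in LAG-3+/+ and 7.99% to 14.8% in LAG-3-/- cord, without overlap. The part of these lists and transcripts in the chaperone values was not tested.

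**Figure D4:**
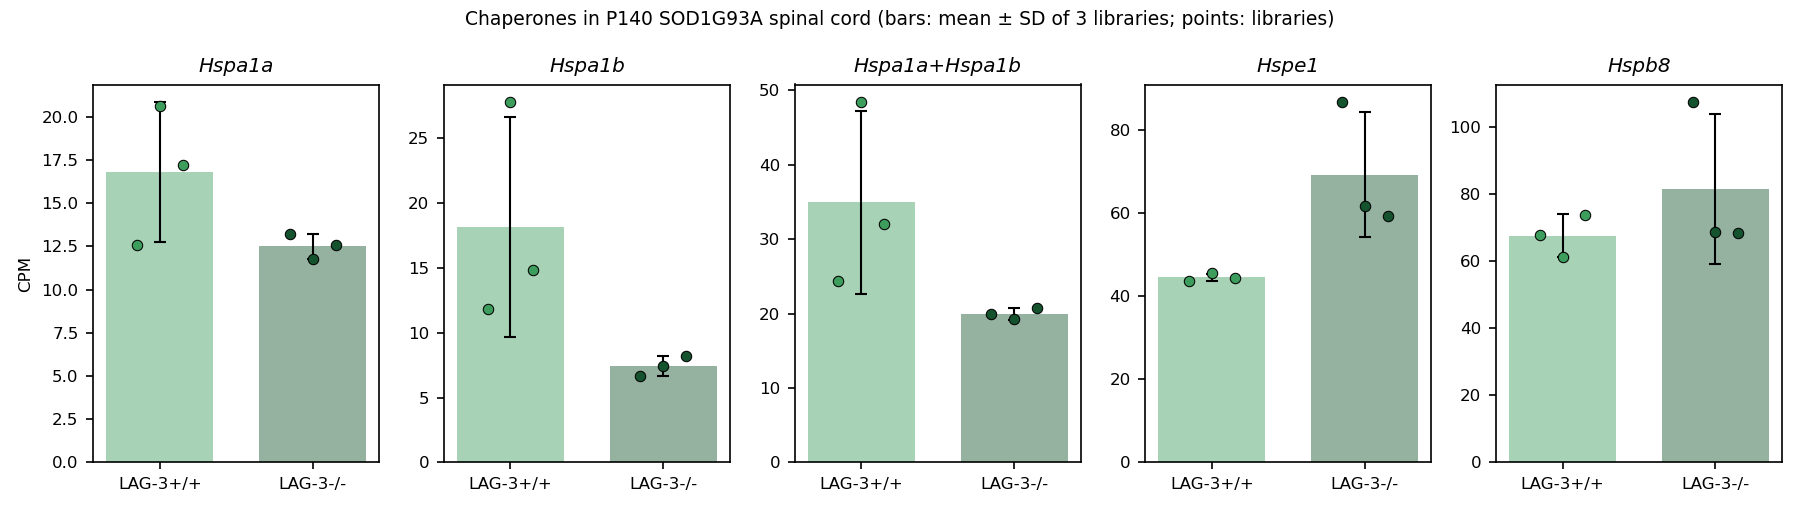
CPM of Hspa1a, Hspa1b, their sum, Hspe1 and Hspb8 in P140 SOD1G93A spinal cord by LAG-3 genotype. Bars and whiskers give the mean ± SD of 3 libraries and points the libraries; the sum of the Hspa1 copies is 19.2 to 20.8 CPM in LAG-3-/- and 24.4 to 48.3 CPM in LAG-3+/+ cord.

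**Figure D5:**
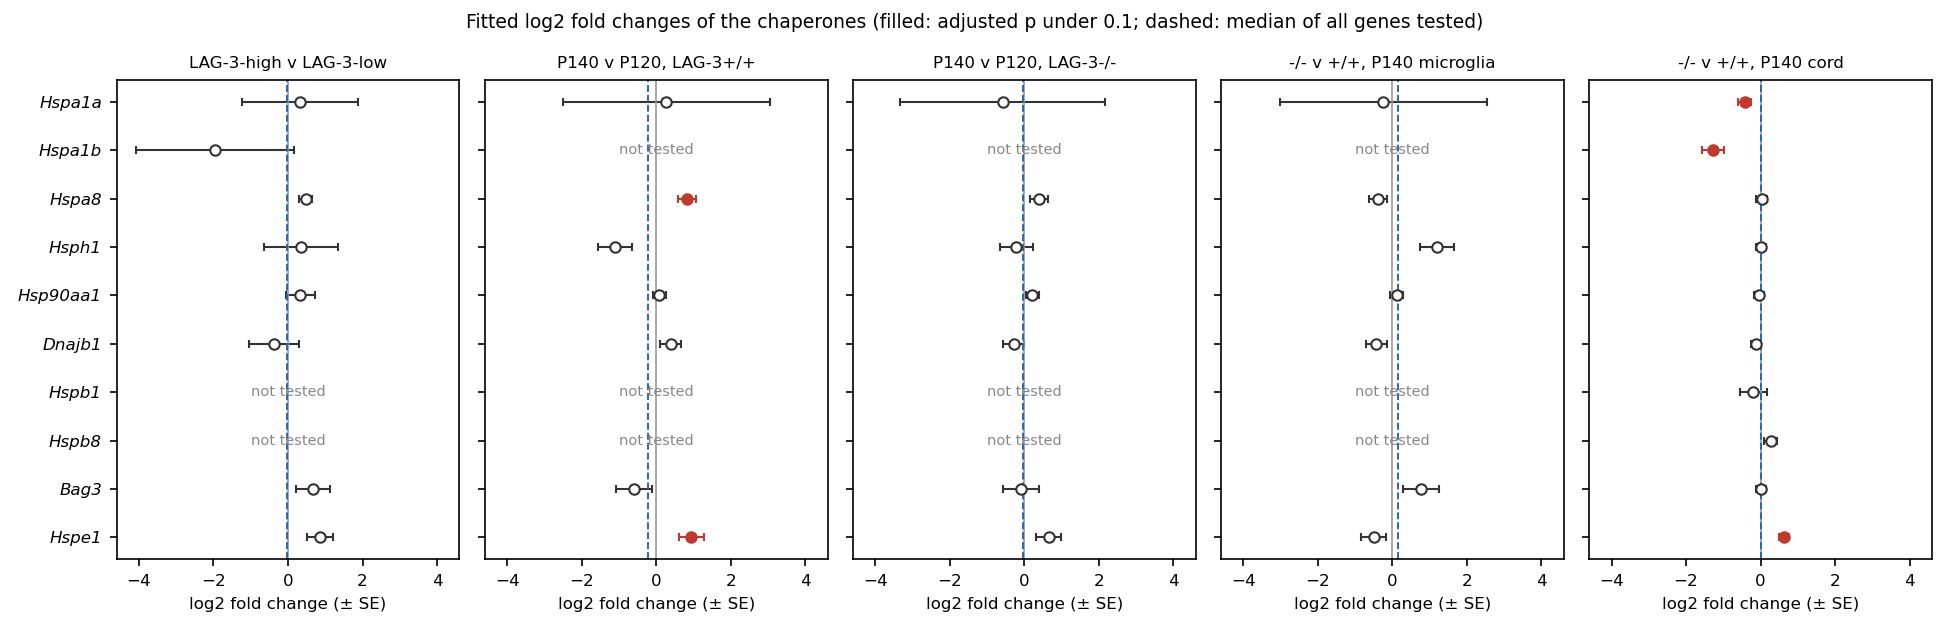
Fitted log2 fold changes ± standard error of the 10 chaperone genes in 5 comparisons, with red filled points for an adjusted p under 0.1 and a dashed line at the median of all genes tested. Hspa8 and Hspe1 pass in the stage comparison of LAG-3+/+ microglia, and Hspa1a, Hspa1b and Hspe1 in cord.

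The wider chaperone network was read from a list of 74 genes outside the 10 members. Between P120 and P140 in LAG-3+/+ microglia, 20 of 66 tested rose and 7 fell, where 27.4% of all genes passed, 11.9% in the higher direction. Among them 6 of 9 chaperonin genes rose and none fell, and 5 of 11 genes of HSP90 and HSP70 co-chaperones rose and 2 fell. Of 10 further HSP70 and HSP110 family genes 1 rose and 2 fell, as did 1 and 2 of 15 J protein genes. Of 4 genes of heat shock factors and their regulators 1 rose and 1 fell. With no falls, 1 of 7 nucleotide exchange factor genes, 1 of 3 HSP90 family genes, 1 of 3 small heat shock protein genes and 3 of 4 other stress-inducible genes rose. The smallest adjusted p belonged to Ubb, a polyubiquitin gene, at 1550 ± 35.8 and 4571 ± 962 CPM (SD, n = 3 each; log2 fold change 1.56, adjusted p = 0.00515), to Hsbp1, which encodes a binding protein of heat shock factor, at 177 ± 12.7 and 423 ± 86.4 CPM (1.26, adjusted p = 0.00727) and to Stub1, the ubiquitin ligase CHIP that acts on HSP70 clients, at 89.7 ± 9.13 and 226 ± 58.2 CPM (1.33, adjusted p = 0.00997, edgeR with Benjamini-Hochberg adjustment). In LAG-3-/- microglia none of the 66 passed by edgeR, and 11 had an unadjusted p under 0.05 beside 1658 of all genes. The network values carry no correction for length and GC content. Deviations ran with transcript length at Spearman's rho of 0.0347 to 0.129 in P120 and -0.254 to -0.195 in P140 LAG-3+/+ libraries. The part of this trend in the network values was not tested.

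Between genotypes, none of the 66 network genes passed by edgeR at P120 or in the interaction, where 2 and 10 had an unadjusted p under 0.05 beside 551 and 2541 of all 18669 genes. At P140, 1 rose and 4 fell in LAG-3-/- microglia, where 10.2% of all genes were called, among them Ubb (-1.02, adjusted p = 0.0385) and the HSP90 activator gene Ahsa1 (-0.76, adjusted p = 0.0706), while the J protein gene Dnajc5 rose (2.02, adjusted p = 0.0733, edgeR with Benjamini-Hochberg adjustment). Between the sorted fractions, 2 of 67 rose in LAG-3-high and none fell, where 4.39% of all genes were called: the nucleotide exchange factor gene Bag1 (0.71, adjusted p = 0.0386) and the autophagy receptor gene Sqstm1 (0.73, adjusted p = 0.0850, edgeR with Benjamini-Hochberg adjustment). Bag1 was at 152 ± 22.1 CPM in LAG-3-low and 248 ± 15.5 CPM in LAG-3-high microglia (SD, n = 5 each).

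Against WT, 19 of 67 network genes passed as higher and 2 as lower in the LAG-3-high fraction. Of all genes, 30.3% passed there in either direction and 16.5% in the lower direction. In the LAG-3-low fraction 10 network genes passed as higher and 7 as lower, beside 24.9% of all genes in either direction and 12.9% lower. These values include WT replicates 1 and 4, which stood apart. The same 3 genes led both comparisons, which share the WT libraries: Hspb3, a small heat shock protein gene, at 66.5 ± 28.5 CPM in WT (SD, n = 4) and 9.11 ± 1.17 CPM in LAG-3-high microglia (SD, n = 5), the heme oxygenase gene Hmox1 at 6.0 ± 4.33 and 104.8 ± 12.6 CPM, and Dnajc5 at 39.5 ± 14.4 and 108 ± 6.10 CPM. Their log2 fold changes in LAG-3-high microglia were -2.87, 4.13 and 1.45 (adjusted p from 0.000148 to 0.00188, edgeR with Benjamini-Hochberg adjustment).

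In cord 27 of 70 network genes were higher and 7 lower in LAG-3-/- mice, beside 23.1% and 23.9% of all genes (47.1% in either direction). The nucleotide exchange factors Hspbp1 (0.90, adjusted p = 0.000281) and Bag1 (0.76, adjusted p = 0.00104) and the ligase gene Stub1 (0.91, adjusted p = 0.000281, edgeR with Benjamini-Hochberg adjustment) had the smallest adjusted p. Of the HSP70 and HSP110 family genes outside the members, 2 of 11 were higher and 4 lower. No other class had more lower than higher. Of 15 J protein genes 5 were higher and 2 lower, and of 5 other stress-inducible genes 2 and 1. With none lower, 6 of 11 co-chaperone, 5 of 7 nucleotide exchange factor, 4 of 9 chaperonin, 2 of 5 heat shock factor and regulator, 1 of 4 small heat shock protein and 0 of 3 HSP90 family genes were higher. These values too carry no correction for length and GC content, and in cord the length trend cannot be told apart from genotype.

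Genes whose level across libraries was most like the mean standardised level of the members were App in the sort (Pearson r = 0.893 over 14 libraries), Rcl1 in the stage microglia (r = 0.878 over 12 libraries) and Kcng4 in cord (r = 0.983 over 6 libraries). The likeness is over libraries that share scaling and length trends and is given as a description. Next came Serinc1, Maged2, Ppp1r10 and Fam234b in the sort, Pgcka1, Oma1, Gpr160 and Arfrp1 in the stage microglia, and Trim36, Fn3krp, Kat14 and Pigq in cord. The members themselves did not share 1 pattern. In the sort the Pearson r between members ran from -0.849 (Hsph1 and Hsp90aa1) to 0.754 (Hsp90aa1 and Hspe1). Immediate early genes, which cell isolation can induce, summed to 811 to 1539 CPM in LAG-3-low, 1002 to 1317 CPM in LAG-3-high and 272 to 979 CPM in WT libraries, and to 849.5 to 1321 CPM in the stage microglia.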

How the data were processed

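Lumbar microglia (26 libraries) and lumbar cord (6 libraries) were sequenced, microglia with a SMART-seq kit and cord with a directional kit. The deposited values are estimated counts per gene, which the authors made from trimmed reads by Salmon and tximport; the submitters' processing notes name Trim Galore 0.6.7, Salmon 1.9.0, R 4.2.1 and GRCm39, and the annotation release is not given in the sources used here. Salmon divides reads among near-identical transcripts by model, which bears on Hspa1a, Hspa1b and Hspb1.

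Counts were rounded and each table was fitted separately with edgeR 4.0.16 in R 4.3.3 (filterByExpr with a minimum count of 10, TMM factors, robust quasi-likelihood F-test). Genes were called at a Benjamini-Hochberg adjusted p under 0.1 over all genes tested. All groups of a table shared 1 fit, with a genotype-by-stage design for the stage table. Standard errors were derived from the log2 fold change and F. CPM used TMM library sizes. Totals of 9403286 to 49512341 counts set the precision, and 3 counts corresponded to 0.0555 to 0.261 CPM in microglia and 0.112 to 0.172 CPM in cord. Transcript lengths, GC content and coordinates came from Ensembl canonical transcripts of GENCODE vM39 (GRCm39), and promoters from RefSeq. The alternatives were DESeq2 1.42.0, other scaling and filters, a replicate block, a sex covariate, a length and GC correction (mgcv 1.9.3), fits on the groups compared and the omission of each library. The scripts were tested on simulated counts. The 10 members and the lists were chosen with earlier results of these data known. Genes outside the members were named as the 3 network genes of smallest adjusted p per comparison and the 5 genes of highest correlation with the members per table; Hspd1 was added after its values were seen.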

Additional observations from a re-analysis of the deposited data

Results flagged for a closer look

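In 5 of 29 sets of libraries of 1 gene and group, 1 library lay farther from the others than Dixon's 95% limit. Chance gives about 1 in 20 for independent sets of evenly spread values, and these sets are neither: many values are at or near 0, and the reads of Hspa1b count both alone and in the sum. The sum of Hspa1a and Hspa1b was 64.7 CPM (742 counts) in WT replicate 2, where the other WT libraries were at 0.0634 to 10.6 CPM. In LAG-3-low replicate 1 the sum was 24.2 CPM (526 counts) against 0 to 4.38 CPM, Hspa1b alone was 20.1 CPM (438 counts) against 0 to 2.54 CPM, and Hspb1 was 1.06 CPM (23 counts) against 0 in the other 4 libraries. In LAG-3-high replicate 1 Hspa1b was 4.51 CPM (80 counts) against 0 to 1.06 CPM.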

How the results depend on the processing

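Of 716 values of single members under the alternatives other than omission of a library, 618 kept their direction and side of the threshold, 12 lost and 24 gained a call, 56 changed sign without a call and 6 changed sign with one. Those 6 were Hspa8 in LAG-3-high against WT with the length and GC correction (-0.47), Hsp90aa1 (0.11) and Hspe1 (1.05) in LAG-3-high and Hspe1 in LAG-3-low (0.22) against WT replicates 2 and 3, and Hspa8 (0.33) and Hsph1 (6.40) in LAG-3-low against WT replicates 1 and 4. Both choices of WT libraries were made after seeing the data; the cause was not tested.

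The number of members called in the LAG-3-high fraction against the LAG-3-low fraction, 0 in the reported fit, was 2 with the length and GC correction, 3 with only these groups, and 2 with either pair of WT libraries. For LAG-3-high against WT it was 1, and then 2, 0, 3 (WT 2 and 3) and 4 (WT 1 and 4) in that order. For LAG-3-low against WT it was 2, and then 4, 1, 1 and 4, and 1 with RLE factors, library totals, no filter, the sex covariate, an adjusted p under 0.05 or an absolute log2 fold change above 1. From P120 to P140 in LAG-3+/+ microglia it was 2, then 4 with the correction, 3 with DESeq2 (Hsph1 lower as well), 1 with library totals (Hsph1 lower, neither rise) and 1 with an adjusted p under 0.05. Between genotypes at P140 it was 0, then 1 with DESeq2 or library totals. In cord it was 3, and 1 with an absolute log2 fold change above 1.

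With each library left out in turn, the numbers ranged over 0 to 1 for the fractions, 0 to 2 for LAG-3-high and 1 to 2 for LAG-3-low against WT, 0 to 3 for the LAG-3+/+ stages, 0 to 3 for genotype at P140 and 2 to 3 in cord, and stayed at 0 in the other comparisons. Calls of all genes moved between fits as well, in the interaction from 32 in the reported fit to 1301 by DESeq2. The share of all genes is not given beside each number of members. Those numbers thus describe the processing and are not a result about the chaperones.

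Replicate numbers did not pair the samples (same-number correlations of -0.12 to 0.067). With the replicate block the numbers called were 0 for LAG-3-high and 1 for LAG-3-low against WT, because Hsp90aa1 (-1.10, adjusted p = 0.139) and Hspe1 (-0.83, adjusted p = 0.198, edgeR with Benjamini-Hochberg adjustment) were lost; no other call changed. Depth limits Hspa1a, Hspa1b, Hspb1 and Hspb8 in microglia.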
